A study of Arabidopsis thaliana with 6 samples.

Results

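The glutathione S-transferase (GST) family of Arabidopsis thaliana was followed as a list of 46 gene identifiers: 28 of the tau class (GSTU), 10 of the phi class (GSTF), 3 of the lambda class (GSTL), 1 of the zeta class (GSTZ), 1 of the theta class (GSTT) and 3 dehydroascorbate reductases (DHAR). The members are given by gene identifier as family members, with no measured value in the rule, but the family was picked for description with earlier results of these data known. The count table held 24267 genes and 45 of the 46 members. GSTU15 (AT1G59670) was not analysed here, and GSTU21 (AT1G78360) had too few counts to be tested, which left 44 tested members among 21355 tested genes. All seedlings were wild type, of the Columbia accession, and were moved at 4 days of age to fresh plates for 72 h. The treated groups received 10 nM melatonin (MT) or 1 nM indole-3-acetic acid (IAA), and the control group received ethanol at 0.1%, the solvent of both compounds. Each group had 2 RNA sequencing libraries. Melatonin and IAA, the main natural auxin, are both indoles that plants make from tryptophan, and their doses differed by design, so MT and IAA values are set side by side as labelled.

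GSTs are small enzymes that use the tripeptide glutathione. Tau and phi GSTs make up most of the plant family and carry a catalytic serine: they join glutathione to reactive or foreign molecules such as herbicides and oxidised lipids, and the conjugates are then pumped into the vacuole. Lambda GSTs and DHARs carry a cysteine in its place and act as reductases, the DHARs by returning dehydroascorbate to ascorbate. The zeta enzyme works in tyrosine breakdown, and theta GSTs act as peroxidases. Several tau and phi genes are textbook markers of stress, since pathogens, herbicides, oxidants and high doses of auxin raise their transcripts.

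Library totals ran from 35953236 to 46076624 counts. Between the 2 libraries of a group the median member differed by 0.14 on the log2 scale with MT, 0.13 with IAA and 0.19 in the control. Over all tested genes these medians were 0.16, 0.14 and 0.15. In the control, 32 of the 44 tested members were higher in replicate 1 and 12 in replicate 2. With IAA the split was the other way, with 12 higher in replicate 1 and 32 in replicate 2. With MT it was 23 and 21. The same split over all tested genes is not given here. Nothing in the labels says that the paired libraries of a group came from different cultures. The p-values therefore reflect the spread between the sequenced libraries alone, which may be technical. The labels describe seedlings, while the series' design text speaks of rosette leaves. All 10 root marker genes had counts in every library, among them CASP1, of the endodermis, and COBL9 and EXPA7, of root hairs. Their summed level was 141.9 to 142.5 CPM (a gene's counts scaled to the same library size) with MT, 178 to 186 CPM with IAA and 137 to 178 CPM in the control, where replicate 1 had the higher value. The 10 shoot markers, which include the Rubisco small subunit gene RBCS1A, summed to 27630 to 30730 CPM with MT, 23460 to 25240 CPM with IAA and 30070 to 31730 CPM in the control. No root marker passed the test in any comparison (edgeR, 1 with MT against control, 2 with IAA against control and 5 with MT against IAA at an unadjusted p under 0.05; DESeq2 called 1, 0 and 2). Of the shoot markers LHCB1.3, an antenna gene, rose with MT against control and no other passed in any comparison. At an unadjusted p under 0.05 there were 8 of the 10 shoot markers with MT against control, 5 with IAA against control and 4 with MT against IAA, and DESeq2 called 4, 4 and 3. Over all tested genes, in the same order, edgeR called 7.65%, 0.332% and 0.173% and DESeq2 14.1%, 3.72% and 5.96%. An unadjusted p under 0.05 was found for 25.2%, 14.3% and 17.4% of them. The median log2 fold changes of the shoot markers were -0.09, -0.37 and 0.22, in the same order. Those of the root markers were -0.04, 0.31 and -0.37. The part that shifts in tissue make-up play in the GST values was not tested. In whole seedlings, fewer cells of a type and less RNA per cell cannot be told apart.

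The family took 0.447 and 0.475% of all counts in the MT libraries, 0.431 and 0.449% in the IAA libraries and 0.392 and 0.374% in the control libraries. Phi genes held most of this. The 10 phi genes summed to 2468 and 2543 CPM with MT, 2218 and 2309 CPM with IAA and 2015 and 1920 CPM in the control. The order of these sums was MT, then IAA, then control, with no overlap between groups. Single phi genes did not all keep it. GSTF9 and GSTF10 did, whereas GSTF8 averaged 415 CPM with MT, 455 CPM with IAA and 435 CPM in the control. The 27 tau genes in the table summed to 1123 and 1192 CPM with MT, 1138 and 1129 CPM with IAA and 1094 and 1041 CPM in the control. The tau sums of the treated groups overlapped each other and lay above both control libraries. Phi genes made up 53.4 to 54.3% of the family's level with MT, 52.3 to 53.1% with IAA and 50.2 to 51.0% in the control. Tau genes made up 24.7 to 25.1% with MT, 26.0 to 26.8% with IAA and 27.2 to 27.7% in the control.

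**Figure D1:**
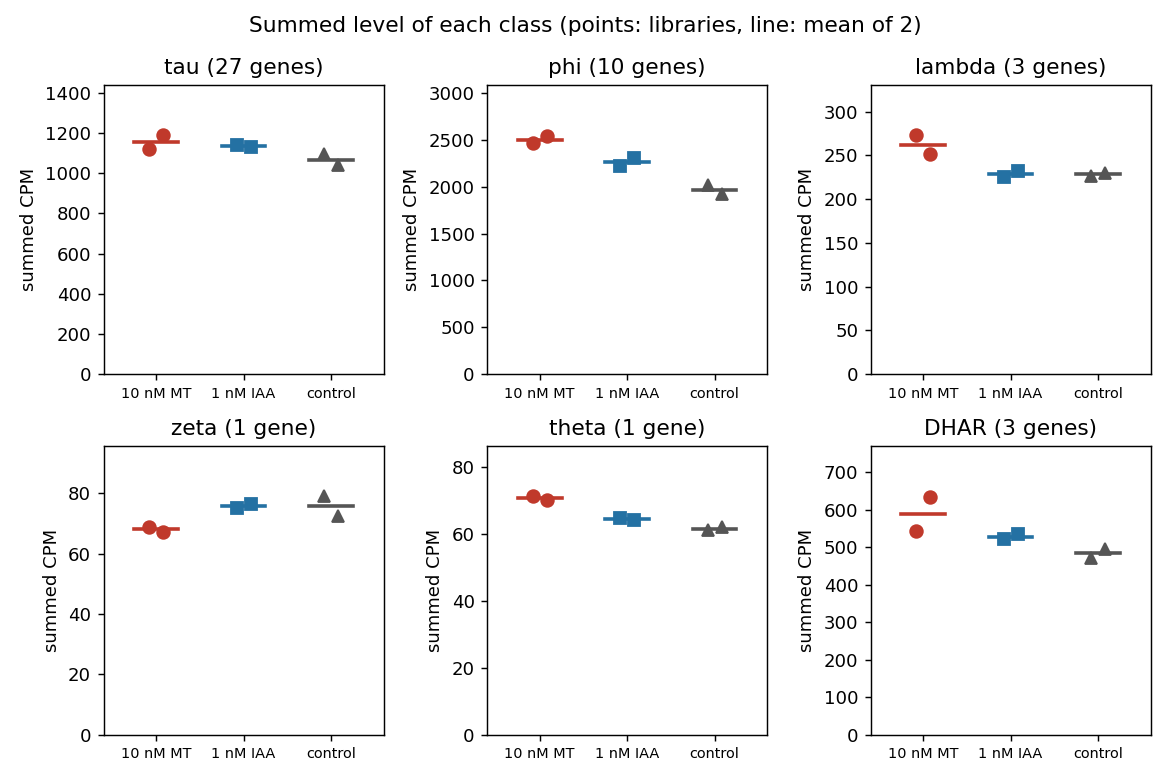
Summed level of each GST class in CPM (y axes start at 0), with 2 libraries for each group as points and their mean as a line. The phi sums lie at 2468 and 2543 CPM with MT against 2015 and 1920 CPM in the control, while the single zeta gene has 68.8 and 67.3 CPM with MT against 79.2 and 72.5 CPM in the control.

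The 3 lambda genes summed to 273 and 252 CPM with MT, 226 and 232 CPM with IAA and 227 and 230.5 CPM in the control. For the 3 DHAR genes the sums were 542 and 634 CPM with MT, 521 and 536 CPM with IAA and 473 and 497 CPM in the control. Both classes were highest in the MT libraries, and for the DHAR genes the lower MT library lay close to the higher IAA library. These class sums are descriptions and were given no test.

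Levels can be compared between members only per length, so CPM was divided by the coding length in kilobases. The class sums and shares given above were not divided by length and are shares of counts. On that scale, averaged over the 6 libraries, GSTF9 led with 913 CPM per kb, followed by GSTF2 with 819, GSTF10 with 702, GSTU19 with 634, DHAR1 with 607 and GSTF8 with 549. These 6 genes supplied 64.6 to 66.5% of the family's CPM, not divided by length, in every library. At the other end GSTU12 had 1.04 CPM per kb and GSTU21, with 0 to 9 counts in a library, 0.105. Thus 4 of the 6 most abundant members were phi genes, and the tau class ranged from GSTU19 down to the lowest member measured.

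**Figure D2:**
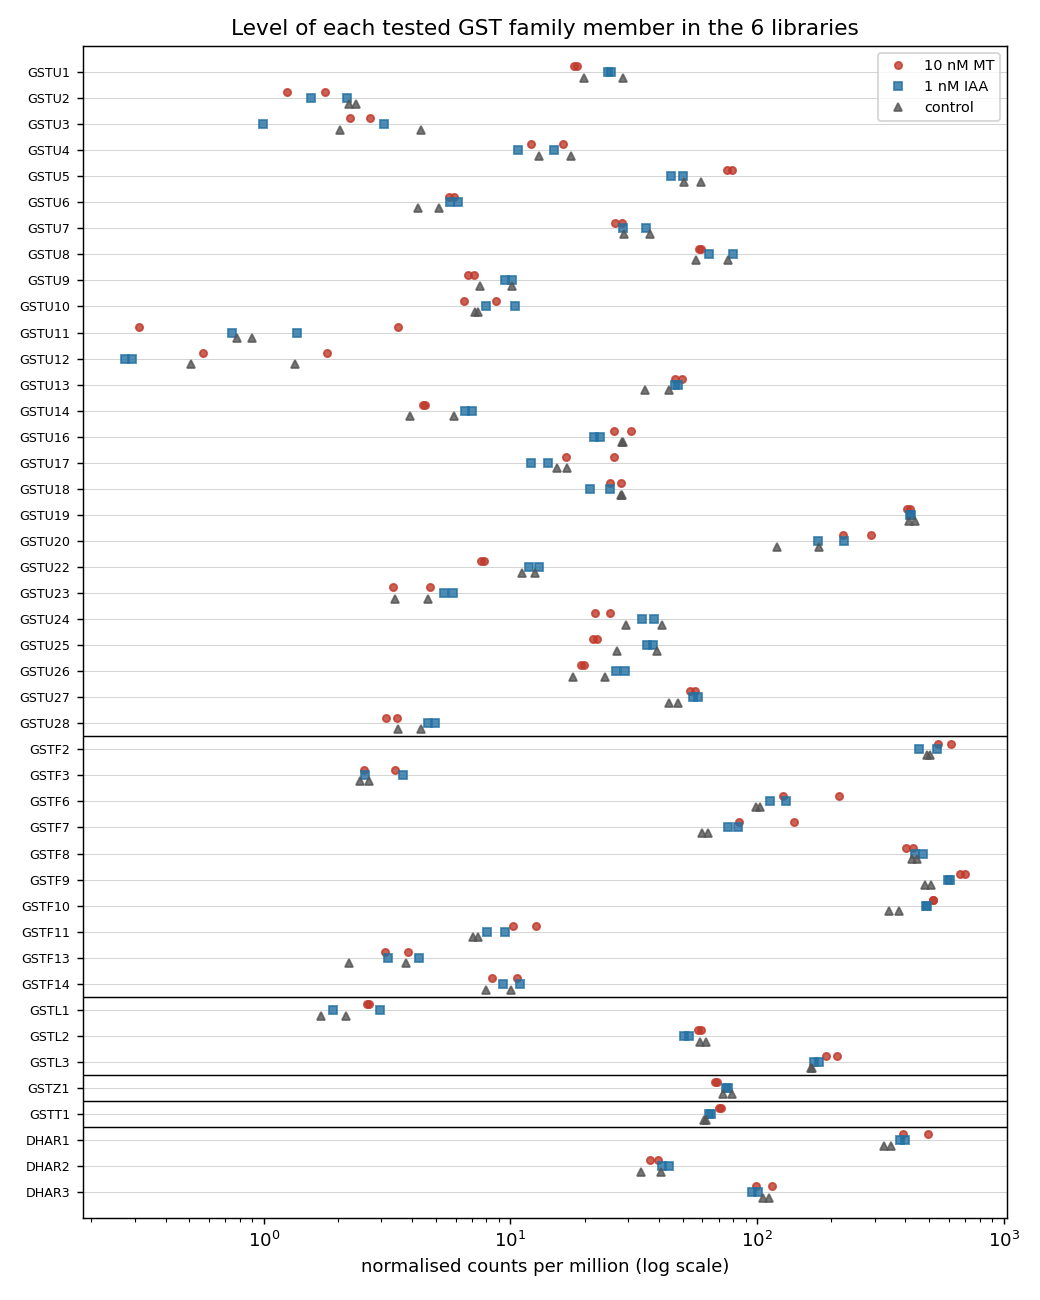
Level of the 44 tested members in CPM on a log axis, 1 row a member, with both libraries of MT (circles), IAA (squares) and control (triangles); black lines divide the classes. Most members keep their place across groups, while GSTU11 spans 0.311 to 3.50 CPM between the MT libraries alone.

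GSTU19 (AT1G78380), a tau enzyme known as inducible by herbicide safeners, had 407 and 417 CPM with MT, 418 and 422 CPM with IAA and 436 and 412 CPM in the control. GSTF8 (AT2G47730), long used as a reporter of early stress responses, had 429 and 401 CPM with MT, 471 and 438 CPM with IAA and 444 and 427 CPM in the control. Neither of these abundant genes passed the test, with log2 fold changes for MT against control of -0.04 ± 0.08 (SE) and -0.07 ± 0.09. The 95% intervals of the fitted log2 changes ran from -0.23 to 0.15 for GSTU19 and from -0.28 to 0.14 for GSTF8. GSTF2 (AT4G02520), a phi protein known to bind auxin and the defence compound camalexin, had 614 and 543 CPM with MT, 453 and 538 CPM with IAA and 500.5 and 490.0 CPM in the control. Its MT libraries were the highest, yet its log2 fold change of 0.22 ± 0.11 did not pass (adjusted p = 0.27). GSTF2 shares 1442 bases with the gene model AT4G02510, which had 342 to 463 CPM over the 6 libraries. GSTF8 shares 516 bases with AT2G47720, which was not in the count table. The sources used here do not give the strand setting of the counting, so the counts of both are uncertain, as are those of the other members, 13 in all with these, that overlap another gene model.

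To see which GST transcripts differed after 72 h on melatonin, the MT libraries were set against the control. Among the GST members 3 rose, 1 fell and 40 did not pass (edgeR's quasi-likelihood test, adjusted p below 0.05 over all genes). The risen genes were the phi neighbours GSTF9 and GSTF10 and the tau gene GSTU5, and the fallen one was the tau gene GSTU22. All 4 changes were below 2-fold. The share of members called was 9.09%, against 7.65% of all tested genes, so it stood near the background. Higher calls were 6.82% of members against 3.99% of all genes, and lower calls 2.27% of members against 3.65% of all genes.

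GSTF9 (AT2G30860), which has both transferase and peroxidase activity, had 664.5 and 700 CPM with MT, 595 and 604 CPM with IAA and 507 and 478 CPM in the control. GSTF10 (AT2G30870), first found as the drought-induced gene ERD13, had 518 and 519 CPM with MT, 484 and 488 CPM with IAA and 378 and 343 CPM in the control. For both genes every MT library was above every IAA library, and every IAA library above every control library. With MT, GSTF9 averaged 682 ± 24.9 CPM, against 492.5 ± 20.5 CPM in the control (SD, n = 2 each), a log2 fold change of 0.47 ± 0.08 (SE, adjusted p = 0.0225 in edgeR's test). GSTF10 averaged 518 ± 0.757 CPM with MT and 361 ± 24.9 CPM in the control, a log2 fold change of 0.52 ± 0.09 (adjusted p = 0.0184 in edgeR's test). GSTF10 shares 12 bases with AT2G30880, which had 33.0 to 34.5 CPM with MT and 34.9 to 36.0 CPM in the control.

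GSTU5 (AT2G29450), annotated as induced by auxin, pathogens and herbicides, had 79.0 and 75.3 CPM with MT, 49.9 and 44.8 CPM with IAA and 50.4 and 59.3 CPM in the control. The MT libraries were above all others, and the IAA libraries were below both control libraries. Its log2 fold change for MT against control was 0.49 ± 0.10 (adjusted p = 0.0361 in edgeR's test). GSTU22 (AT1G78340), a tau enzyme, had 7.64 and 7.83 CPM with MT, 13.1 and 11.8 CPM with IAA and 12.6 and 11.1 CPM in the control. Here the MT libraries were the lowest and the IAA and control libraries overlapped, and the log2 fold change for MT against control was -0.62 ± 0.14 (adjusted p = 0.0422 in edgeR's test).

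**Figure D3:**
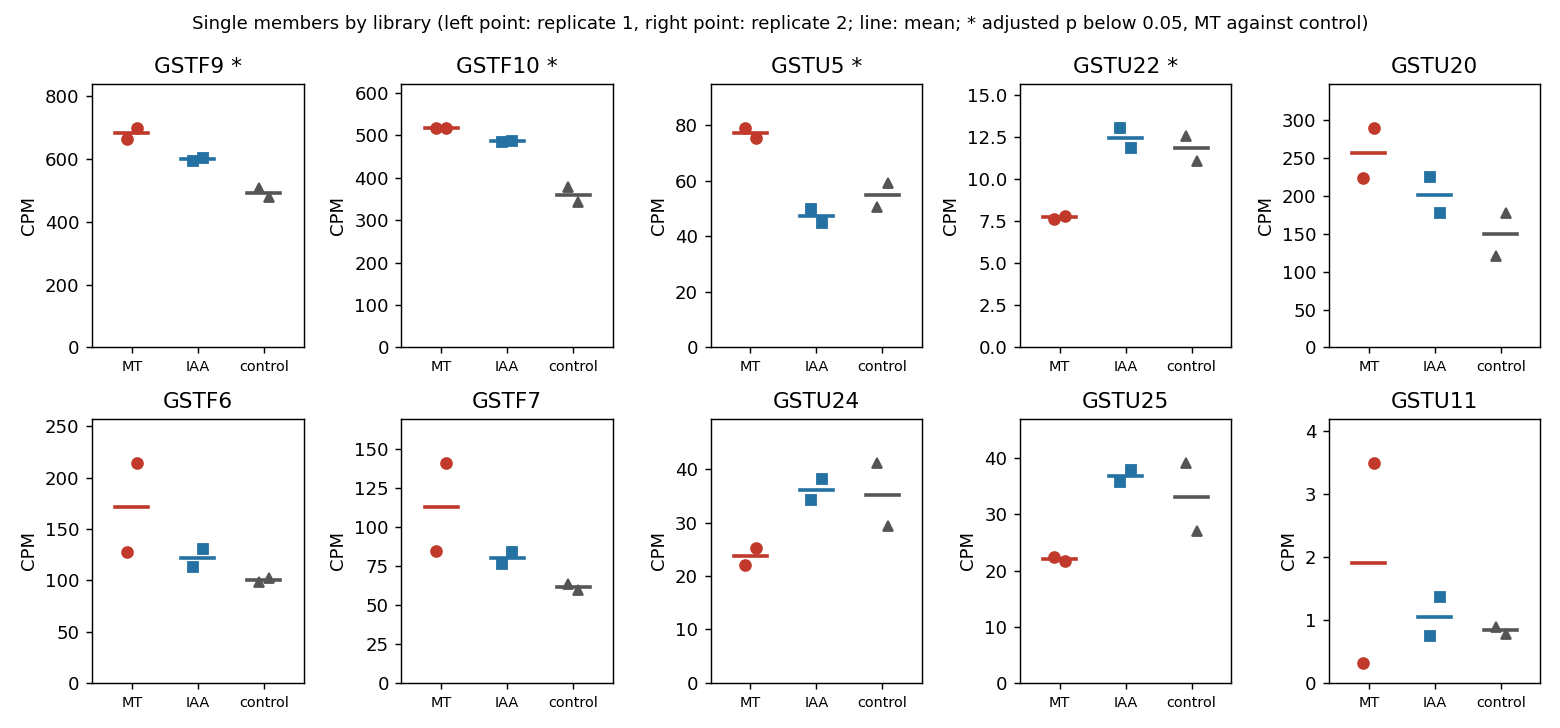
Level of 10 members in CPM (y axes start at 0), with replicate 1 left and replicate 2 right in each group and the mean as a line; a star marks adjusted p below 0.05 for MT against control. GSTF9 and GSTF10 step down from MT through IAA to control, GSTU22 is lowest with MT, and the MT libraries of GSTF6, GSTF7 and GSTU11 lie far apart.

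The calls rest on 2 libraries a group. GSTF9, GSTU5 and GSTU22 missed the threshold with any 1 of the 6 libraries left out, at adjusted p of 0.0511 to 0.114, 0.0531 to 0.139 and 0.0769 to 0.157 in edgeR's test. GSTF10 was still called without MT replicate 2 or either IAA library (adjusted p of 0.0426 to 0.0436 in edgeR's test), and missed it without control replicate 1 (0.0603), control replicate 2 (0.0964) or MT replicate 1 (0.0605). Their log2 fold changes kept their sign in all of these fits. Without control replicate 1 the number of members called was 0. Without MT replicate 1 the 3 called members were GSTF6, GSTF7 and DHAR1 (0.56, adjusted p = 0.0456). Without control replicate 2 there were 2 calls, both lower with MT: GSTU24 (-0.79, adjusted p = 0.0472) and GSTU25 (-0.83, adjusted p = 0.0288). DESeq2, whose calls covered 14.1% of all tested genes, called 12 members or 27.3%. Those higher with MT were GSTF6, GSTF7, GSTF9, GSTF10, GSTF11, GSTU5, GSTU20, GSTL3 and DHAR1, and those lower were GSTU22, GSTU24 and GSTU25.

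**Figure D4:**
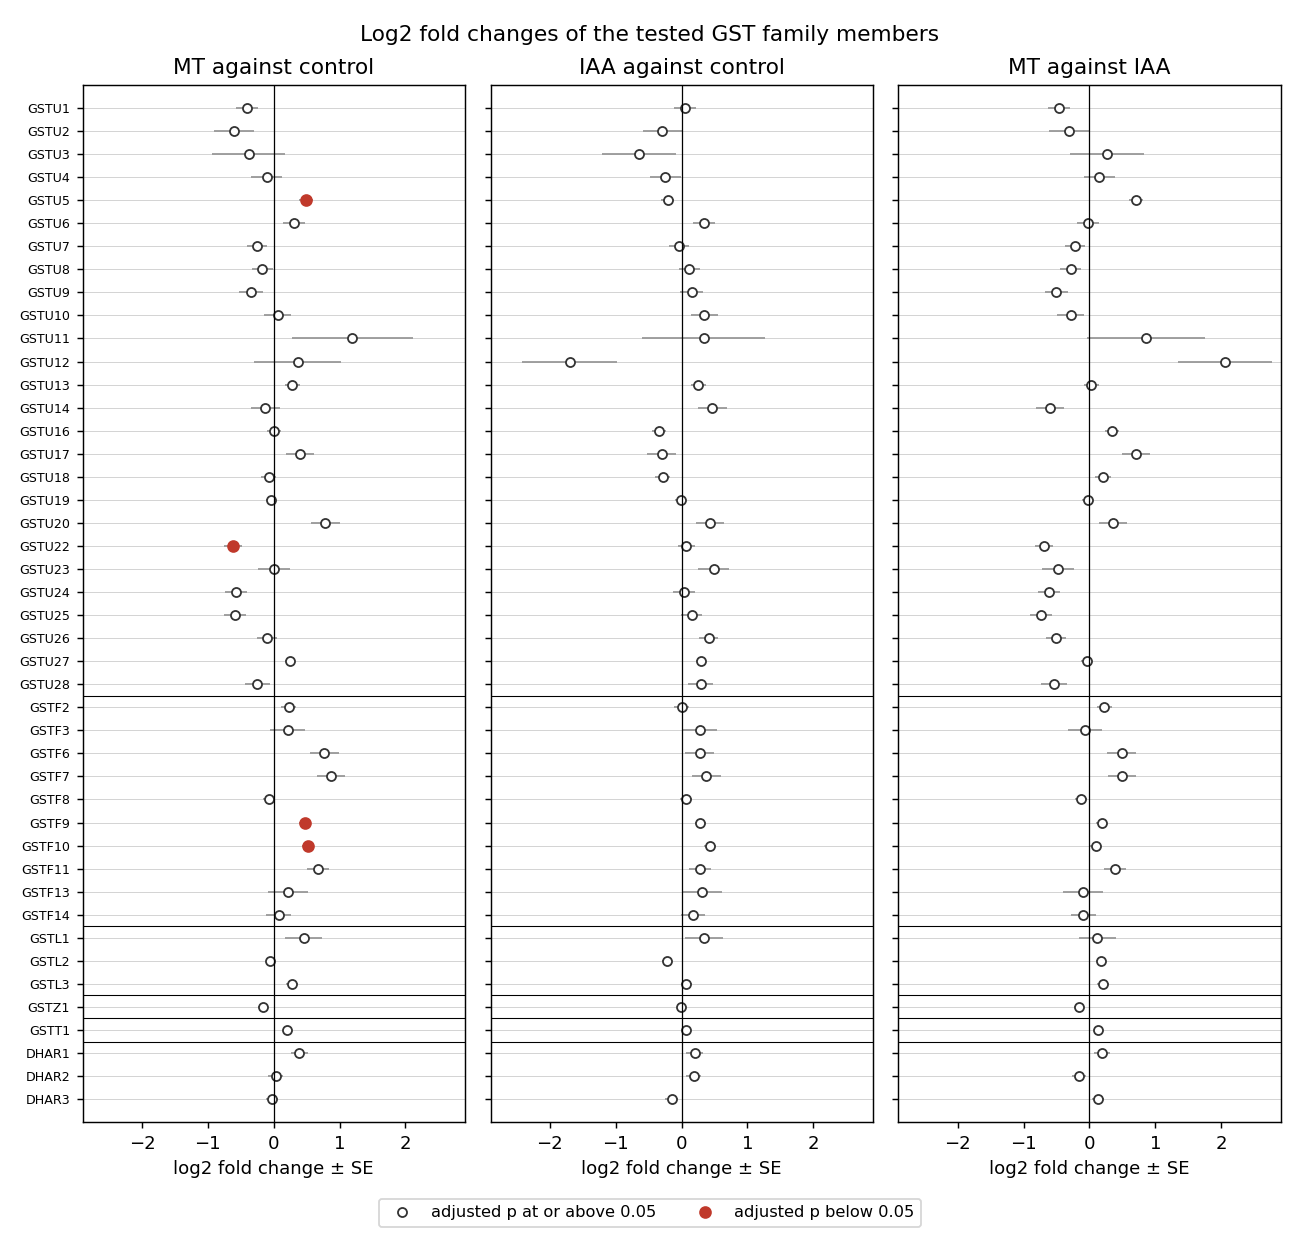
Log2 fold change with its SE for the 44 tested members, in panels for MT against control, IAA against control and MT against IAA; filled points passed the adjusted threshold and black lines divide the classes. In the MT panel 9 of 10 phi genes lie above 0, with a class median of 0.35, whereas tau genes lie on both sides, from -0.62 to 1.20.

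By class, the median log2 fold change with MT was 0.35 for the 10 phi genes and -0.09 for the 26 tested tau genes, against 0.0017 over all tested genes. Positive values were found for 9 phi and 11 tau genes, and negative ones for 1 phi and 15 tau genes. In 15 of the 44 members (34.1%) both MT libraries lay above both control libraries, and in 10 (22.7%) both lay below. Over all genes these shares were 27.8% and 27.7%. Of the phi genes 6 were above and 0 below, while of the tau genes 5 were above and 9 below. The difference between the classes was given no test. Unadjusted p-values under 0.05 were found for 16 members (36.4%) and 25.2% of all genes.

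Several phi genes outside the calls were high in the MT libraries. GSTF6 (AT1G02930), known for its part in making camalexin, had 128 and 214 CPM with MT, 113 and 131 CPM with IAA and 98.7 and 102 CPM in the control. Its neighbour GSTF7 (AT1G02920) had 84.5 and 141 CPM with MT, 76.4 and 83.9 CPM with IAA and 63.55 and 59.8 CPM in the control. MT replicate 2 stood above all other libraries for both genes, by 1.68 and 1.67 times over MT replicate 1. Their log2 fold changes were 0.77 ± 0.22 (adjusted p = 0.0868 in edgeR's test) and 0.87 ± 0.22 (0.0583). Without MT replicate 1 both were called (1.10 and 1.20). The coding sequences of GSTF6 and GSTF7 were 94.3% identical, with a longest shared run of 116 bases, so reads could be split between them. Their summed level was 212 and 355 CPM with MT, 189 and 215 CPM with IAA and 162 and 162 CPM in the control.

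GSTF11 (AT3G03190) and GSTU20 (AT1G78370) are known to act in the synthesis of aliphatic glucosinolates, defence compounds of this plant order, and GSTU13 (AT1G27130) in that of the indole type. GSTF11 had 12.8 and 10.3 CPM with MT, 9.54 and 8.01 CPM with IAA and 7.07 and 7.36 CPM in the control. All groups were separate from each other, at a log2 fold change for MT against control of 0.67 ± 0.17 (adjusted p = 0.0589 in edgeR's test). GSTF11 lies over 1096 bases of the gene model AT3G03200, whose level was 1.10 to 1.42 CPM with MT and 0.531 to 0.750 CPM in the control. GSTU20 had 224 and 290 CPM with MT, 225 and 177 CPM with IAA and 121 and 178 CPM in the control. The control libraries of GSTU20 differed 1.47-fold, and its log2 fold change was 0.79 ± 0.22 (adjusted p = 0.0771 in edgeR's test). GSTU13 had 49.9 and 46.3 CPM with MT, 46.3 and 48.0 CPM with IAA and 44.0 and 35.2 CPM in the control.

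On the lower side stood GSTU24 (AT1G17170) and GSTU25 (AT1G17180), neighbours known for detoxifying the explosive trinitrotoluene. GSTU24 had 22.1 and 25.3 CPM with MT, 34.1 and 38.2 CPM with IAA and 41.1 and 29.3 CPM in the control. GSTU25 had 22.5 and 21.65 CPM with MT, 35.7 and 37.9 CPM with IAA and 39.2 and 27.0 CPM in the control. The MT libraries of both genes were below all others. Their log2 fold changes for MT against control were -0.57 ± 0.17 (adjusted p = 0.0902 in edgeR's test) and -0.58 ± 0.17 (0.0834). Control replicate 1 was 1.40 times replicate 2 for GSTU24 and 1.45 times for GSTU25. Of the 44 tested members, 32 were higher in replicate 1 in the control and 32 were higher in replicate 2 with IAA. The root markers summed to 178 CPM in control replicate 1 and 137 CPM in control replicate 2. With IAA they summed to 186 and 178 CPM, and a link to the GST values was not tested.

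The widest spread between replicates was in GSTU11 (AT1G69930), with 11 and 138 counts in the MT libraries, 33 and 65 with IAA and 32 and 29 in the control. Its MT replicate 2 was 11.2 times replicate 1 in CPM, so the log2 fold change of 1.20 ± 0.92 did not pass and became -1.41 without that library. Its neighbour GSTU12 (AT1G69920) had 20 and 71 counts with MT, 13 and 13 with IAA and 48 and 19 in the control. GSTU17 (AT1G10370), described in the annotation as a negative component of drought and salt responses, had 16.8 and 26.3 CPM with MT, 12.2 and 14.2 CPM with IAA and 15.5 and 17.0 CPM in the control. For all of these MT replicate 2 was the higher MT library.

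Of the reductases, DHAR1 (AT1G19570), the main cytosolic form, had 391 and 496 CPM with MT, 380 and 397 CPM with IAA and 326 and 351 CPM in the control. Its log2 fold change for MT against control was 0.39 ± 0.13 (adjusted p = 0.113 in edgeR's test), and both treated groups lay above the control libraries. DHAR2 (AT1G75270) and the plastid form DHAR3 (AT5G16710) had 0.03 ± 0.11 and -0.02 ± 0.09. GSTL3 (AT5G02790) had 211 and 191 CPM with MT, 171 and 178.5 CPM with IAA and 165.9 and 166.5 CPM in the control, a log2 fold change of 0.28 ± 0.09 (adjusted p = 0.101). GSTL1 (AT5G02780) and the plastid form GSTL2 (AT3G55040) had 0.45 ± 0.29 and -0.05 ± 0.07. GSTZ1 (AT2G02390), the enzyme of tyrosine breakdown, had -0.16 ± 0.07, and the peroxisomal GSTT1 (AT5G41210) had 0.20 ± 0.07. GSTZ1 was lower and GSTT1 higher in both MT libraries than in both control libraries, at fitted ratios of 0.897 and 1.15 and adjusted p of 0.247 and 0.118 in edgeR's test.

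The comparison of IAA with control asked what a low dose of auxin changed. No member passed in edgeR's test, in which 0.332% of all tested genes were called. At an unadjusted p under 0.05 there were 7 members (15.9%), against 14.3% of all genes, and DESeq2 called GSTF9 and GSTF10, or 4.55% of members against 3.72% of all genes. GSTF10 averaged 486 ± 2.96 CPM with IAA and 361 ± 24.9 CPM in the control (SD, n = 2 each), a log2 fold change of 0.43 ± 0.09 (adjusted p = 0.132 in edgeR's test and 6.753e-05 in DESeq2). GSTF9 averaged 599.5 ± 6.51 CPM with IAA and 492.5 ± 20.5 CPM in the control, at 0.28 ± 0.08 (adjusted p = 0.232 in edgeR's test and 0.0151 in DESeq2). GSTU27 (AT3G43800) had 57.65 and 55.0 CPM with IAA and 47.9 and 44.0 CPM in the control, at 0.30 ± 0.08 (adjusted p = 0.207 in edgeR's test).

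Lower values with IAA were found in GSTU16 (AT1G59700), with 21.9 and 23.1 CPM against 28.5 and 28.7 CPM in the control, at -0.34 ± 0.10 (adjusted p = 0.242 in edgeR's test). GSTL2 had 53.0 and 50.4 CPM with IAA against 58.9 and 62.3 CPM in the control, at -0.23 ± 0.07 (adjusted p = 0.254 in edgeR's test). GSTU12 had the lowest log2 fold change with IAA, -1.69 ± 0.72, on the few counts given above. In 17 of the 44 members (38.6%) both IAA libraries lay above both control libraries and in 8 (18.2%) below, while over all genes these shares were 23.6% and 24.8%. The median was 0.15 over the tested members, 0.28 over the phi and 0.09 over the tau genes, against 0.00043 over all genes. The phi values ran from 0.00083 for GSTF2, which turned to -0.00016 with RLE factors and -0.00014 in DESeq2, to 0.43 for GSTF10. MT and IAA were set against the same control libraries, so the values of these comparisons are not independent of each other.

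MT was also set against IAA directly, at 10 nM and 1 nM. No member passed in edgeR's test, in which 0.173% of all genes were called, while 14 members (31.8%) and 17.4% of all genes had an unadjusted p under 0.05. DESeq2, which called 5.96% of all genes, called 6 members (13.6%) and gave no adjusted p for 3 members. Of those called, GSTU5 and GSTU17 were higher with MT, and GSTU22, GSTU24, GSTU25 and GSTU26 lower. GSTU5 averaged 77.2 ± 2.64 CPM with MT and 47.4 ± 3.63 CPM with IAA, a log2 fold change of 0.70 ± 0.10 with a 95% interval of 0.46 to 0.95 (adjusted p = 0.0632 in edgeR's test). With robust empirical Bayes in edgeR it was called (adjusted p = 0.0304). GSTU22 averaged 7.74 ± 0.139 CPM with MT and 12.5 ± 0.865 CPM with IAA, at -0.69 ± 0.13 with an interval of -1.01 to -0.37 (adjusted p = 0.103 in edgeR's test).

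For GSTF9 and GSTF10 the MT-IAA differences were smaller, 0.19 ± 0.08 with an interval of -0.01 to 0.38 and 0.09 ± 0.09 with an interval of -0.11 to 0.30. GSTU24, GSTU25 and GSTU26 (AT1G17190) stood at -0.61 ± 0.17, -0.74 ± 0.17 and -0.51 ± 0.15, with both MT libraries below both IAA libraries in each. In 13 members (29.5%) the MT libraries lay above the IAA libraries and in 15 (34.1%) below, against 24.3% and 26.1% of all genes. Of the 15 lower ones 12 were tau genes, or 46.2% of the 26 tested tau genes, while 5 tau genes were above. This split by class was given no test. The summed root markers were 141.9 to 142.5 CPM with MT and 178 to 186 CPM with IAA. Single root markers had log2 fold changes from -0.73 (COBL9) to 0.53 (WOX5), with a median of -0.37. WOX5 alone was positive, at 0.53 ± 0.43 and a low level of 0.879 to 1.67 CPM in these libraries. The summed shoot markers were 27630 to 30730 CPM with MT and 23460 to 25240 CPM with IAA. A link between these marker levels and the GST values was not tested.

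By position, 27 of the 46 members lay in 9 tandem blocks, in which a member is at most 3 protein-coding genes from the next. Coding sequences of members in the same block had a median identity of 74.9%, against 55.4% for other pairs within a class. Members of 1 block did not always have like values. In the block of GSTU19 to GSTU23, the log2 fold change for MT against control was -0.62 for GSTU22, 0.79 for GSTU20, -0.04 for GSTU19 and 0.0091 for GSTU23. In the block of GSTU1 to GSTU7, GSTU5 had 0.49, GSTU6 0.31 ± 0.17, GSTU1 -0.41 ± 0.17 and GSTU2 -0.60 ± 0.30. GSTU3 had -0.38 ± 0.56, GSTU4 -0.10 ± 0.24 and GSTU7 -0.25 ± 0.15, and GSTU5 alone passed. Over the 16 pairs of tested neighbours in the blocks, the log2 fold changes for MT against control differed by 0.01 to 0.83, with a median of 0.34. The closest were GSTU24 with GSTU25 (0.01), GSTF9 with GSTF10 (0.05) and GSTF6 with GSTF7 (0.10). GSTU26, next to GSTU25, differed from it by 0.49, GSTU17 from GSTU18 by 0.48 and GSTU13 from GSTU14 by 0.41, and the widest gap was between GSTU11 and GSTU12, on few counts. GSTF2 and GSTF3, on different chromosomes, were 94.5% identical, with a longest shared run of 74 bases, so reads could be split between them. GSTF2 had 146 to 212 times the CPM of GSTF3, so the level and changes of GSTF3 are uncertain.

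**Figure D5:**
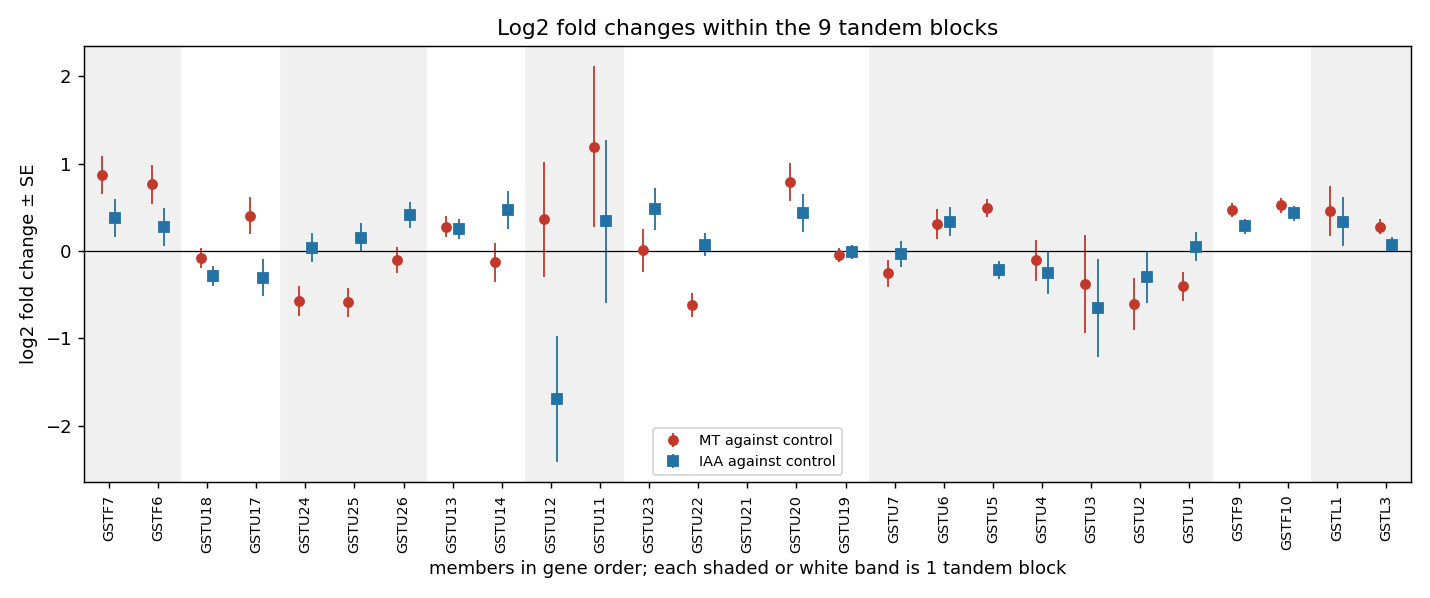
Log2 fold change with its SE for members of the 9 tandem blocks in gene order, for MT against control (circles) and IAA against control (squares); bands separate the blocks and GSTU21 was not tested. GSTF9 and GSTF10 lie together above 0, GSTU24 and GSTU25 together below 0 with MT, and GSTU20 and GSTU22 on opposite sides.

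The genes that surround GSTs in glutathione use were counted from further lists. In glutathione metabolism 3 of 12 tested genes rose with MT, 0 fell and 9 did not pass (edgeR's test, median 0.27), against 3.99% of all tested genes that rose and 3.65% that fell. They were PCS1 (AT5G44070), which makes metal-binding phytochelatins from glutathione (log2 fold change 0.43 ± 0.07, adjusted p = 0.0149), GGP1 (AT4G30530), which processes glutathione conjugates (0.38 ± 0.08, 0.0332), and GGCT2;2 (AT4G31290), which breaks glutathione down (0.33 ± 0.08, 0.04998). The synthesis enzymes GSH1 (AT4G23100) and GSH2 (AT5G27380) had -0.02 ± 0.14 and -0.02 ± 0.07. Of 8 glutathione peroxidase genes 2 rose, GPX6 (AT4G11600) by 0.54 ± 0.10 and GPX3 (AT2G43350) by 0.40 ± 0.08. A further 3 fell, the plastid forms GPX1 (AT2G25080), with -0.58 ± 0.11, and GPX7 (AT4G31870), with -1.18 ± 0.24, and GPX5 (AT3G63080), with -0.53 ± 0.10. Of 3 ABCC pumps that carry conjugates into the vacuole, ABCC3 (AT3G13080) rose by 0.59 ± 0.09 (adjusted p = 0.0150 in edgeR's test), while ABCC1 and ABCC2 had -0.01 ± 0.09 and 0.07 ± 0.11.

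The list of xenobiotic and oxylipin response genes holds enzyme genes of that response together with regulators, among them the TGA factors TGA2, TGA5 and TGA6, their partner SCL14 and 3 NAC factors. In it 1 of 18 rose with MT, 2 fell and 15 did not pass (median -0.23). Of all tested genes 3.99% rose and 3.65% fell. The glucosyltransferase genes UGT74E2 (AT1G05680) and UGT73B4 (AT2G15490) fell, by 1.04 ± 0.17 and 0.88 ± 0.18 on the log2 scale, and ANAC102 (AT5G63790), a transcription factor gene, rose by 0.57 ± 0.10. Of 8 other genes of the GST superfamily, such as GSTF12 and GSTT2, 0 passed with MT (edgeR's test, 2 at an unadjusted p under 0.05, 0 in DESeq2). With IAA against control 0 of the 49 genes in these 5 lists passed in edgeR's test, though 12 were under 0.05 before adjustment (24.5%, against 14.3% of all genes) and DESeq2 called 6 (12.2%, against 3.72%). With MT against IAA 0 passed in edgeR's test, with 8 under 0.05 before adjustment (16.3%, against 17.4% of all genes, so near the background) and 4 called by DESeq2 (8.16%, against 5.96%).

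The calls in these lists also depended on single libraries. Of the 49 tested genes in 5 lists, 12 were called with MT (24.5%, against 7.65% of all genes), but 0 to 5 with 1 library left out, 0 of them without control replicate 1. GPX3, GGP1 and GGCT2;2 missed the threshold with any 1 library left out (adjusted p of 0.0729 to 0.147, 0.0590 to 0.154 and 0.0838 to 0.203 in edgeR's test). PCS1, ABCC3 and ANAC102 were called in 3 of the 6 such fits and missed it without either control library or MT replicate 1, at up to 0.0830, 0.0868 and 0.108. The other 6, the peroxidases GPX1, GPX5, GPX6 and GPX7 and the glucosyltransferases UGT74E2 and UGT73B4, were called in 1 or 2 of the 6, with adjusted p of up to 0.134.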

How the data were processed

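Total RNA from 6 seedling libraries was sequenced, 2 for each of 10 nM MT, 1 nM IAA and control. The authors deposited 1 table of raw read counts per gene, with no normalization. The submitters' processing notes name HTSeq 0.6.1, DESeq 1.18.0, Bowtie2 2.2.3 and TopHat2 2.0.12, with no role stated. The sources used here do not give the genome build, the annotation or the strand setting. Of 24267 genes, 351 carry new-gene identifiers of the table, and 23606 of the other 23916 matched a locus tag of RefSeq TAIR10.1, which served for coding length, coding identity and neighbouring genes.

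Counts were fitted with edgeR 4.0.16 in R 4.3.3 (TMM factors, filterByExpr by group, quasi-likelihood test on all 6 libraries with group as the factor), with Benjamini-Hochberg adjustment over 21355 tested genes and a threshold of 0.05. The fit had 3 residual and a median of 3.83 prior degrees of freedom, and a common coefficient of variation of 16.1%. The SE is the log2 fold change divided by the root of the F statistic, and 95% intervals use the same degrees of freedom. CPM values, the counts scaled to a common library size, use TMM-scaled library sizes. The test was first tested on simulated data with known changes. Alternatives were RLE and upper quartile factors, no low-count filter, robust empirical Bayes, DESeq2 1.42.0, a fit of only the 2 groups compared, the replicate number as a block, and leaving out each library in turn.

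The members and gene lists were chosen with earlier results of these data known. By rule, any member could be named. Values in every library could be given for members called, for the 6 of highest level per length and for those in a tandem block with either. Such values are not printed for all of these block members. Further members with values were chosen after their values were seen, as were list genes beyond those called. Gene positions in RefSeq TAIR10.1 gave the tandem blocks and the overlaps between gene models. Protein sequences and promoter motifs were not used here.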

Additional observations from a re-analysis of the deposited data

How the results depend on the processing

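For single members, 508 of 572 values from the alternatives kept the sign and the side of the threshold with MT against control, 542 of 572 with IAA against control and 551 of 572 with MT against IAA. A further 23, 25 and 14 values in these comparisons belonged to members whose log2 fold change was within 1 SE of 0 and changed sign, among them GSTU4 (0.13 without control replicate 1), GSTU10 (-0.16 without MT replicate 1) and, with IAA against control, GSTF2 (-0.12 without IAA replicate 2). Signs also turned for 5 members that were not called but lay over 1 SE from 0, each with 1 library left out. With MT against control GSTU8 ran from -0.37 to 0.061, positive without control replicate 1, and GSTU11 from -1.41 to 2.07, negative without MT replicate 2. With IAA against control GSTU3 ran from -1.68 to 0.00082, positive without control replicate 1, GSTF13 from -0.0145 to 0.75, negative without control replicate 2, and GSTL1 from -0.0028 to 0.63, negative without IAA replicate 2. The causes were not tested.

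With MT against control, 4 members were called, 12 by DESeq2, 2 in the fit of only the 2 groups, 2 with the replicate block and 0 to 3 with 1 library left out. The 1633 genes called became 3010 by DESeq2 and 493 to 1300 with 1 library left out. The 12 called genes of the pathway lists became 5 in the fit of only the 2 groups and 0 to 5 with 1 library left out. With IAA against control, 0 members became 2 by DESeq2, and 0 list genes became 6. The 71 genes called became 130 with robust empirical Bayes, 794 by DESeq2, 125 in the fit of only the 2 groups and 15 to 113 with 1 library left out. With MT against IAA, 0 members became 1 with robust empirical Bayes and 6 by DESeq2, and 0 list genes became 4 by DESeq2. The 37 genes called became 76 with no low-count filter, 142 with robust empirical Bayes, 1273 by DESeq2, 6 in the fit of only the 2 groups, 12 with the replicate block and 6 to 340 with 1 library left out. A group left with 1 library was assumed to vary like the others. With upper quartile factors the IAA sums were 1145 CPM for tau genes, against 1134 CPM, and 65.1 CPM for the theta gene, against 64.4 CPM.

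Deviations of same-numbered libraries correlated weakly, at 0.0790 for MT and IAA, 0.00738 for MT and control and 0.0254 for IAA and control. These values cannot tell whether same-numbered libraries were grown or prepared together. With the replicate block GSTF9 (adjusted p = 0.0496) and GSTF10 (0.0360) stayed called in edgeR's test, and GSTU5 (0.0594) and GSTU22 (0.0642) did not. With 2 libraries a group, members at few counts, such as GSTU11 and GSTU12, had wide errors.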
